A study of Mus musculus with 3 samples.

Results

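The hair shaft keratins are the structural proteins of the hair itself. The 10 genes described here are 6 type I keratins, Krt31, Krt32, Krt33a, Krt33b, Krt34 and Krt35, and 4 type II keratins, Krt81, Krt82, Krt83 and Krt86. They were taken by gene symbol, as every probe set that the platform annotation assigned to exactly 1 of these genes. Each gene had 1 such probe set, so 10 of the 34945 probe sets with a single gene were used, and all 10 genes were among the 8456 genes tested. Dorsal skin of 4-day-old female BALB/cA mice was profiled on 1 array per sample, in 2 uncv null mice (uncv -/-, here uncv null 1 and uncv null 2) and 1 wild type sister (uncv +/+) born to heterozygous parents. Uncovered (uncv) is a mouse mutation of sparse or missing hair, known to lie in Rhbdf2, which encodes iRhom2, a regulator of the protease ADAM17. The word null is taken from the sample titles. The uncv mutation is carried in every cell of the animal, so a difference in whole skin does not show in which cell it arises. Nothing in the labels says that RNA was pooled. The question is whether the keratins that build the hair are altered in the skin of these mutants while the first coat forms.

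A hair keratin filament is built from pairs of 1 acidic type I and 1 basic type II chain, which are cross-linked to keratin-associated proteins through sulphur-rich ends. The genes are switched on in sequence as cells leave the hair matrix at the base of the follicle and move up into the shaft, and in mouse skin of this age the first hairs are forming. Their known sites, worked out mostly in human hair, fall into 2 layers. KRT35 appears early, above the matrix and in the cuticle, KRT32 and KRT82 mark the cuticle, and KRT31, KRT33A, KRT33B, KRT34, KRT81, KRT83 and KRT86 belong to the cortex. LEF1 and HOXC13, transcription factors of the hair matrix, are known to bind hair keratin promoters.

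The promoters of 5 members were available in the RefSeq promoter table (build GRCm38.p6) and are shown because 4 of them carry the same letters in the same order at nearly the same distance from the gene start. Each line gives the 250 bases before the annotated start, 5′ to 3′ on the coding strand, which is the minus strand in all 5. Capitals mark CTTTGAAG, the kind of site that LEF/TCF factors bind, TTTTATGNG, the kind of site that HOXC13 binds, and TATAAA, the TATA box. The letters were chosen after the promoters were read, and both strands were searched.
Krt33b (chr11:100029869-100030118): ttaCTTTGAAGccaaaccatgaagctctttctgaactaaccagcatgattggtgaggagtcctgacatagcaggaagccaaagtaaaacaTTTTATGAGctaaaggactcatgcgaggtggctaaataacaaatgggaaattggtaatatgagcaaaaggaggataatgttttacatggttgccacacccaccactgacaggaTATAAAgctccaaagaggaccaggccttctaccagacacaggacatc
Krt34 (chr11:100041555-100041804): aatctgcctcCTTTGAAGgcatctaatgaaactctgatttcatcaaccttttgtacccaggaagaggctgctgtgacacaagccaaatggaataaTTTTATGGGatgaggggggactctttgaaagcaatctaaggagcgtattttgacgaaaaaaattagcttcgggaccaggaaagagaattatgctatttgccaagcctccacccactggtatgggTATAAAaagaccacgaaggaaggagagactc
Krt31 (chr11:100050552-100050801): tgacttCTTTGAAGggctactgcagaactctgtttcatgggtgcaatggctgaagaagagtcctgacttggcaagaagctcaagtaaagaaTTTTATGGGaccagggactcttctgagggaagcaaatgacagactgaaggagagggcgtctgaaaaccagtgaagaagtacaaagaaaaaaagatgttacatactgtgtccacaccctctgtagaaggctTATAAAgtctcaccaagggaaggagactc
Krt32 (chr11:100088270-100088519): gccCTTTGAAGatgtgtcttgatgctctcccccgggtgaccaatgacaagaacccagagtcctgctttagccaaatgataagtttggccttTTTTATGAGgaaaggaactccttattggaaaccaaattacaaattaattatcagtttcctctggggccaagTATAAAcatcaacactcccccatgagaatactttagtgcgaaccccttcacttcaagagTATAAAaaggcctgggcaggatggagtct
Krt82 (chr15:101550660-101550909): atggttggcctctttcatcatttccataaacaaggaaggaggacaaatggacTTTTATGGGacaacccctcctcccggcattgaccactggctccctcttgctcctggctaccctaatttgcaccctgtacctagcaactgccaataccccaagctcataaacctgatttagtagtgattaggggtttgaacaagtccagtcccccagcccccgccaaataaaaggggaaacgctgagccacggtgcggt

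In the 4 type I promoters the CTTTGAAG match began 240 to 247 bases before the start and the TTTTATGNG match 155 to 160 bases before it. The distance between the first bases of both matches was 85 bases in Krt31 and Krt34, 87 in Krt33b and 88 in Krt32. The type II promoter of Krt82 held TTTTATGNG, 198 bases before the start, and neither CTTTGAAG nor TATAAA. On either strand CTTTGAAG stood in 1.42%, TTTTATGNG in 0.843% and TATAAA in 12.4% of 32851 promoter windows of this length. Since the letters were chosen from the promoters shown, these shares do not measure how unusual the matches are. The 4 type I promoters, from 1 gene cluster, may not be independent of each other. No capital stretches of different motifs overlapped. These matches describe letters and were not tested as binding sites. The 4 type I genes shown are consecutive members of 1 cluster on chromosome 11, which in GRCm38.p6 runs Krt33a, Krt33b, Krt34, Krt31, Krt32 and Krt35, while the 4 type II members lie on chromosome 15 in the order Krt81, Krt86, Krt83 and Krt82, with Krt84 between Krt83 and Krt82.

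Markers of skin were bright on all 3 arrays, with Krt10, a keratin of the upper epidermis chosen for this check outside the rule for named genes, at 12.73 and 12.86 in uncv null 1 and 2, against 12.81 in wild type. Uncv null 1 differed from the other arrays in its control probe sets. The mean of the 3 probe sets for 18S ribosomal RNA was 7.93 and 4.26 in uncv null 1 and 2, against 3.59 in wild type, on the log2 scale. The Actb control probe set at the 3′ end exceeded the one at the 5′ end by 1.23 and 0.79 in uncv null 1 and 2, against 0.66 in wild type. Array medians were nearly equal, at 3.70 and 3.65 in uncv null 1 and 2, against 3.70 in wild type. The part of RNA quality in the keratin values was not tested.

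Across the hair shaft keratins, the 2 uncv null mice lay on opposite sides of the wild type mouse. In uncv null 1, 9 of 10 genes were below wild type, with a median difference of -0.27 on the log2 scale. In uncv null 2, 10 of 10 were above it, with a median of 0.17, though after a further quantile normalization 8 of 10 were, Krt33b and Krt81 no longer. The 2 uncv null arrays differed from each other by a median of 0.45, uncv null 2 being higher for 10 of 10 genes. Averaged over both uncv null arrays the median difference was -0.07, and it was 0.17 with uncv null 1 left out and -0.27 with uncv null 2 left out. In the limma fit 0 of 10 members and 0 of 8456 genes (0%) passed an adjusted p of 0.05, and 0 members against 386 genes (4.56%) had an unadjusted p under 0.05. All differences here are uncv null minus wild type in log2 units unless another pair is named, and since both uncv null arrays share the 1 wild type array, their differences from it are not independent. In whole skin, fewer shaft cells and less keratin RNA per cell cannot be told apart.

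**Figure D1:**
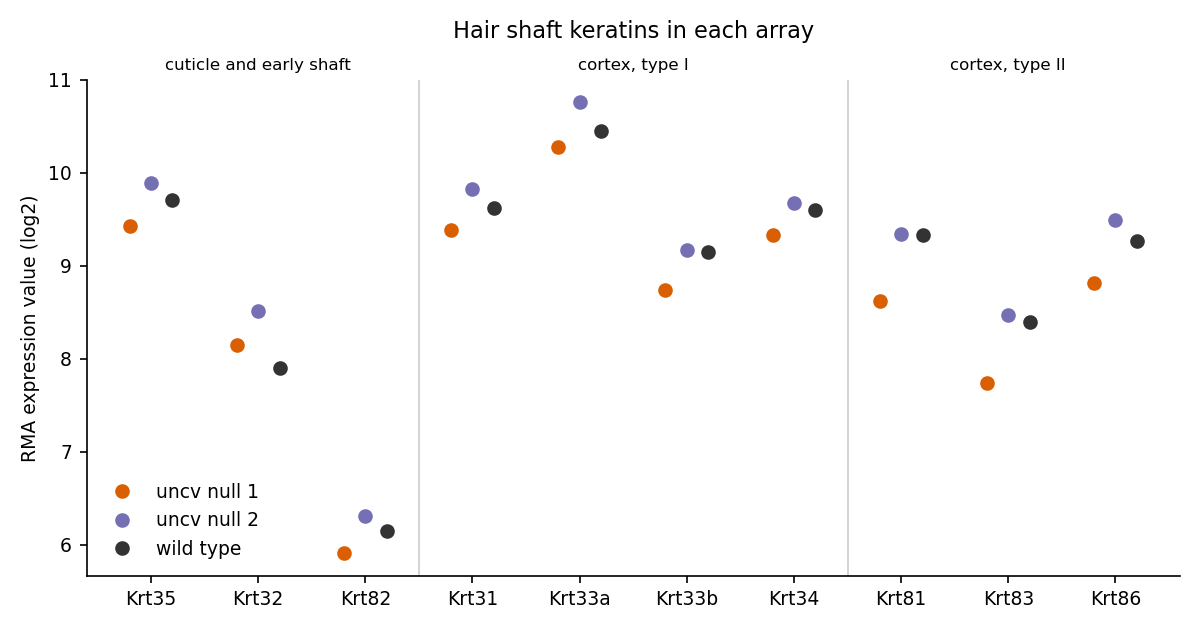
RMA expression value (log2, vertical axis) of each of the 10 hair shaft keratins, with 1 point for uncv null 1, uncv null 2 and wild type. For 9 genes the wild type point lies between the uncv null points, and for Krt32 it is the lowest. Heights of different genes are not comparable, since each probe set has its own brightness.

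The early and cuticle keratins come first. Krt35 (probe set 1420409_at), the type I keratin that is among the first hair keratins to appear in the forming shaft, had log2 values of 9.43 in uncv null 1 and 9.89 in uncv null 2, against 9.71 in wild type. The mean in uncv null skin was 9.66 ± 0.33 (SD, n = 2), so wild type lay within that spread. Krt82 (1427719_s_at), a type II keratin of the cuticle, had 5.91 in uncv null 1 and 6.31 in uncv null 2, against 6.15 in wild type, the same order of arrays. The _s_at ending of its probe set marks probes that can match more than 1 transcript, so this value may include a related keratin.

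Krt32 (1420728_at), the type I cuticle keratin, was the exception. Its log2 values were 8.14 and 8.51 in uncv null 1 and 2, against 7.90 in wild type, so both uncv null arrays were above wild type and the groups did not overlap. On average Krt32 stood 0.43 ± 0.28 above wild type (moderated SE from limma, 2 arrays against 1), a ratio of 1.35 with a 95% interval of 0.86 to 2.10, and it did not pass the test (limma adjusted p = 0.9997). Among the 10 members Krt32 was the 1 with both mutant arrays above wild type, as in 38.8% of all tested genes, and 0 members had both below it, as in 26.4% of all genes.

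The type I keratins of the cortex had the uncv null mice on either side of wild type. Krt31 (1421589_at) had log2 values of 9.38 in uncv null 1 and 9.82 in uncv null 2, against 9.62 in wild type. Krt34 (1418742_at) had 9.33 and 9.68 in uncv null 1 and 2, against 9.595 in wild type. For both genes wild type fell between the uncv null arrays.

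The paired genes Krt33a and Krt33b, neighbours that encode closely similar cortex keratins, had their uncv null arrays in the same order. Krt33a (1449387_at) had 10.27 in uncv null 1 and 10.76 in uncv null 2, against 10.45 in wild type. Krt33b (1427179_at) had 8.74 in uncv null 1 and 9.17 in uncv null 2, against 9.15 in wild type. In Krt33b the wild type value lay nearly level with uncv null 2, and uncv null 1 alone stood apart, at -0.41. Probes on such similar sequences may not separate the 2 genes fully.

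The type II keratins of the cortex, Krt81, Krt83 and Krt86, differed most of the 10 between the uncv null mice. Mutations in their human counterparts cause monilethrix, a disorder of beaded, fragile hair. Krt81 (1427290_at) had log2 values of 8.62 in uncv null 1 and 9.34 in uncv null 2, against 9.33 in wild type. Krt83 (1427118_at) had 7.74 and 8.47 in uncv null 1 and 2, against 8.39 in wild type. Krt86 (1427365_at) had 8.81 and 9.49 in uncv null 1 and 2, against 9.27 in wild type. Uncv null 2 exceeded wild type by 0.01 in Krt81 and 0.08 in Krt83, while uncv null 1 differed from wild type by -0.71 in Krt81 and -0.65 in Krt83. These 3 genes are also close in sequence, so their values may not be independent of each other.

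**Figure D2:**
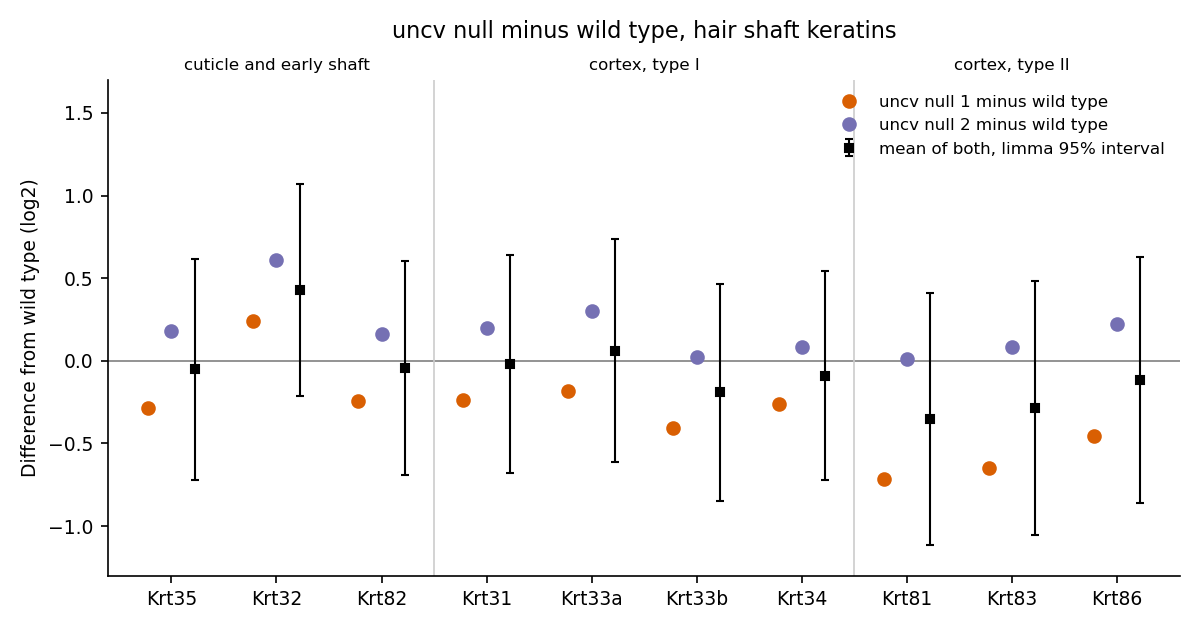
Difference from wild type (log2, vertical axis) of each hair shaft keratin in uncv null 1 and uncv null 2, and the mean of both with limma's 95% interval (squares and bars). The 10 intervals all include 0, and Krt32 alone has both points above 0.

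The fitted mean differences ran from -0.35 ± 0.34 in Krt81 to the 0.43 of Krt32, with moderated SEs of 0.28 to 0.34. All 10 members had a limma adjusted p of 0.9997, and their unadjusted p ran from 0.16 in Krt32 to 0.94 in Krt31. These intervals are wide. For Krt81 the 95% interval of the ratio of uncv null to wild type was 0.46 to 1.33, and for Krt31, whose ratio was 0.99, it was 0.62 to 1.56. Changes within these intervals, in either direction, remain possible. The intervals do not mark a limit of detection. Larger mean differences, such as -2.08 in Actc1 and 1.81 in Actn3, also did not pass the test with these 3 arrays.

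By size alone, 0 of 10 members were 2-fold or more from wild type in both mutant mice, where 0.225% of all tested genes were higher and 0.296% lower by that rule. Nor was any member 2-fold from wild type in either uncv null array taken singly, against 0.946% of all genes for uncv null 1 and 3.48% for uncv null 2. Between the uncv null arrays 0 members reached 2-fold, against 1.9% of all genes. The direction was the shared feature. Of all tested genes 46.5% lay below wild type in uncv null 1 and 58.8% above it in uncv null 2, beside the 9 and 10 of 10 members given above. The order of uncv null 1 lowest, wild type between and uncv null 2 highest was found in 9 members, 5 of type I and 4 of type II, and in 20.1% of all tested genes.

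The difference between the 2 uncv null mice does not involve the wild type array. Uncv null 2 exceeded uncv null 1 by 0.35 to 0.73 log2 units in the members, a ratio of 1.27 in Krt34 up to 1.66 in Krt83. Of all tested genes 55.6% were higher in uncv null 2, with a median of 0.04 and an SD of 0.39. With uncv null 2 the higher array, 11.3% of all tested genes differed by at least the members' median, and 3.10% by at least the difference of Krt83. Genes that differed as much in the other direction are not counted in these shares. There is 1 array on each side, so the difference has no test, and the 10 keratins of 1 tissue sample are not replicates.

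Type II members had a larger gap between the uncv null arrays than type I members, with medians of 0.70 and 0.44. The type I values ran from 0.35 to 0.48, and Krt82 at 0.40 fell among them, so the higher type II median came from the cortex keratins Krt81, Krt83 and Krt86 at 0.67 to 0.73. Against wild type, the type II medians were -0.55 and 0.12 in uncv null 1 and 2, and the type I medians -0.25 and 0.19 in uncv null 1 and 2. The values of the types overlapped in uncv null 1, where Krt82 at -0.24 lay within the type I range of -0.41 to 0.24. The difference between the types was not tested.

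**Figure D3:**
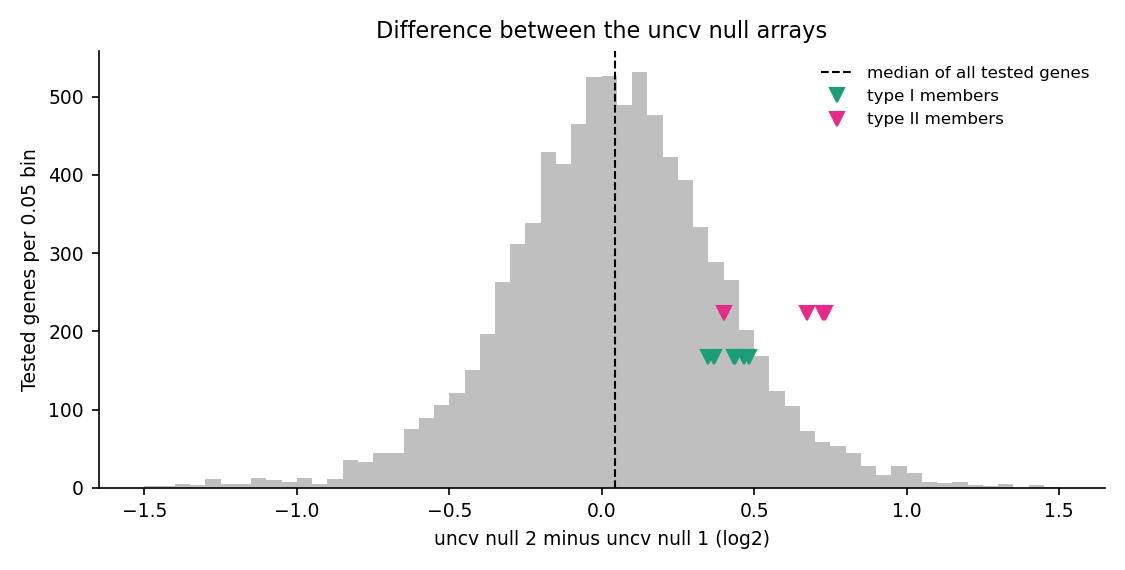
Number of tested genes (vertical axis) by the log2 difference of uncv null 2 minus uncv null 1 (horizontal axis, bins of 0.05). Triangles mark the type I and type II hair shaft keratins, at 0.35 to 0.73, right of the dashed median of all genes at 0.04. Their heights have no meaning, and 42 genes beyond 1.5 in either direction are not drawn.

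Related hair keratins outside the set were few on this array. Krt36, a type I hair-type keratin known from the tongue papillae, had 4.92 in uncv null 1 and 5.77 in uncv null 2, against 5.25 in wild type. Its order of arrays was that of the 9 members. Krt84 fell below the intensity filter, and its direction was not read.

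The keratin-associated proteins, which form the matrix around the keratin filaments, were spread more widely than the keratins. Of 38 with a probe set 34 were tested, and 0 passed the test in either direction. Their medians were -0.36 and 0.37 in uncv null 1 and 2, on the same sides of wild type as the keratins and farther out. Uncv null 2 was above uncv null 1 in 33 of 34 of these genes and in 10 of 10 keratins, against 55.6% of all tested genes. The order of the 9 keratins held in 22 of 34, against 20.1% of all tested genes. In both arrays 6 of 34 were above wild type and 6 below, against 38.8% and 26.4% of all tested genes. Members of this family share sequence and single values are uncertain.

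Single keratin-associated proteins went well beyond any keratin. Krtap6-3 had 4.43 in uncv null 1 and 7.17 in uncv null 2, against 4.54 in wild type. Krtap6-2 had 6.95 and 8.46 in uncv null 1 and 2, against 6.62 in wild type. In both genes uncv null 2 stood well above the other arrays. Krtap19-1 had 4.02 and 5.22 in uncv null 1 and 2, against 5.83 in wild type. Krtap5-1 had 5.33 and 5.72 in uncv null 1 and 2, against 6.66 in wild type, so that both uncv null arrays were below wild type for Krtap19-1 and Krtap5-1. The intensity filter asks for a 3-array mean of at least 5. Krtap6-3 lay below 5 in uncv null 1 and wild type, and passed only through uncv null 2, where it was high. Krtap19-1 lay below 5 in uncv null 1. The sizes of these differences are therefore uncertain.

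Keratins of the inner root sheath and companion layer, which enclose the growing shaft, mostly lay above wild type in both mice. All 8 with a probe set were tested and 0 passed. Their medians were 0.07 and 0.37 in uncv null 1 and 2. Above wild type in both arrays were 6 of 8, against 38.8% of all tested genes. Krt75, the companion layer keratin, had 9.43 and 10.02 in uncv null 1 and 2, against 9.07 in wild type. Krt26, of the inner root sheath, had 8.82 and 9.50 in uncv null 1 and 2, against 8.77 in wild type. The sheath keratins Krt73 and Krt25 had mean differences of 0.31 and 0.22. Uncv null 2 exceeded uncv null 1 in 8 of 8, by a median of 0.36, where 55.6% of all tested genes were higher in uncv null 2.

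Genes of shaft assembly and cross-linking held the other layer-specific products. Of 10 tested, 0 passed, with medians of 0.16 and 0.38 in uncv null 1 and 2, and 6 were above wild type in both arrays and 1 below. Of all tested genes 38.8% were above wild type in both arrays and 26.4% below. Selenbp1, a selenium-binding protein, was the gene of this list below wild type in both, at 5.51 and 5.86 in uncv null 1 and 2, against 6.48 in wild type. Hephl1, a copper-dependent ferroxidase needed for normal hair shape, was higher than wild type in both mice, by 0.38 in uncv null 1 and 0.80 in the other. Prr9, a proline-rich protein, and Vsig8, a membrane protein of the shaft, had mean differences of 0.44 and 0.39. S100a3, the cuticle calcium-binding protein, Gprc5d, an orphan receptor of hard keratinizing tissue, and Crym, a thyroid hormone-binding protein, were singled out after their values were seen because their arrays stood in the order of the 9 keratins. They are the 3 of 10 genes of this list with that order, which 20.1% of all tested genes had. Since they were picked for that order, their having it is no result. S100a3 had 8.79 and 9.34 in uncv null 1 and 2, against 9.06 in wild type, and Gprc5d had 7.84 and 8.88 in uncv null 1 and 2, against 8.24 in wild type. Crym had 8.15 and 8.58 in uncv null 1 and 2, against 8.30 in wild type.

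The regulators of the shaft programme had no common direction. Of 17 tested, 0 passed, and their medians were -0.05 and -0.01 in uncv null 1 and 2. Vdr and Hr, the vitamin D receptor and its corepressor hairless, which the hair cycle needs, had mean differences of 0.82 ± 0.27 and 0.63 ± 0.28 (limma's SE). Wnt5a, a signalling ligand, was at -0.57 and Dlx3, a homeobox factor of the shaft, at 0.36. The factors for which matching letters are marked in the promoters above were looked up after the promoters were read. Hoxc13 had 6.17 and 6.16 in uncv null 1 and 2, against 6.22 in wild type. Lef1 had 6.48 and 6.13 in uncv null 1 and 2, against 6.27 in wild type. Hoxc13 was nearly level over the arrays. Lef1 differed from wild type by 0.21 and -0.14 in uncv null 1 and 2, within the SDs over all genes of 0.32 and 0.45. Of the 17 regulators 2 had the order of the 9 keratins, where 20.1% of all tested genes had it. In both arrays 6 were above wild type and 7 below, against 38.8% and 26.4% of all tested genes. Msx2 and Ovol1, the 2 with the order of the keratins, were singled out after their values were seen. Msx2 differed from wild type by -0.41 and 0.37 in uncv null 1 and 2, and Ovol1 by -0.25 and 0.92. The part of any regulator in the keratin values was not tested.

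**Figure D4:**
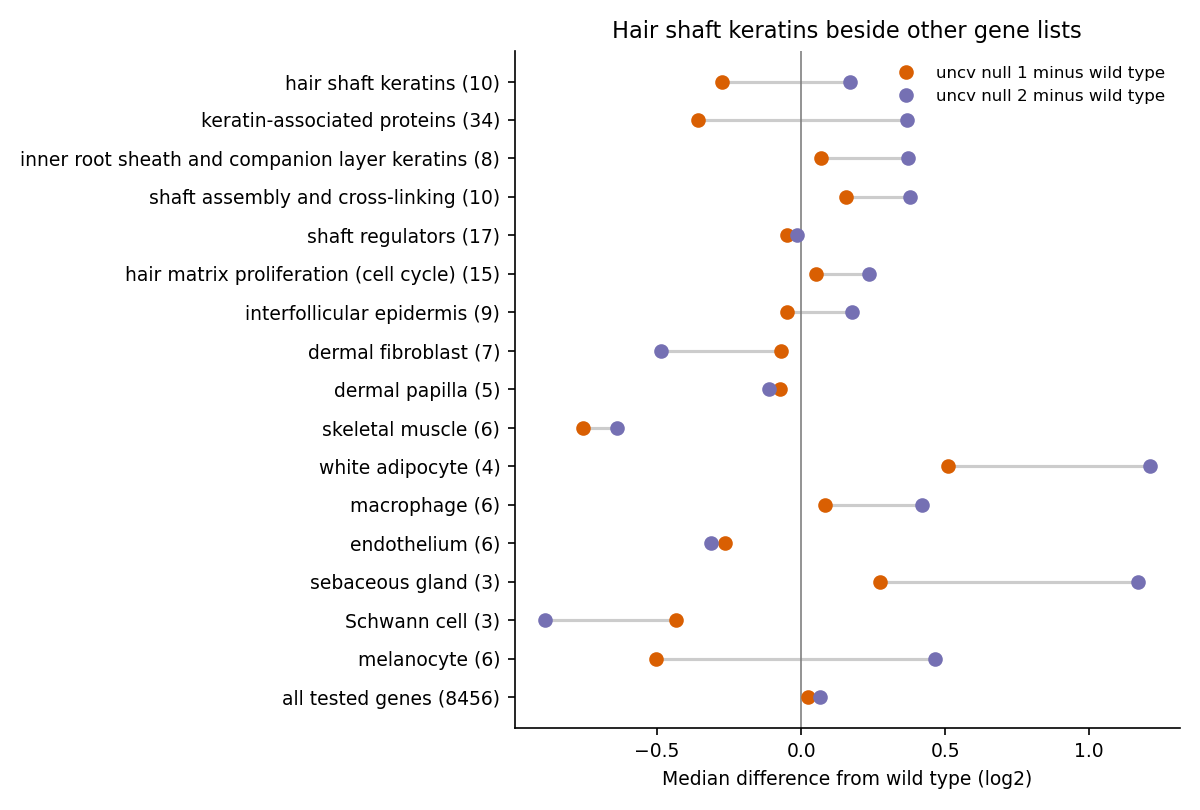
Median log2 difference from wild type (horizontal axis) of uncv null 1 and uncv null 2 for the hair shaft keratins and other gene lists, with the number of tested genes in brackets. The hair shaft keratins, keratin-associated proteins, melanocyte markers and interfollicular epidermis markers have uncv null 1 below 0 and uncv null 2 above 0. Their medians are, in that order, -0.27 and 0.17, -0.36 and 0.37, -0.51 and 0.46, and -0.05 and 0.18.

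Markers of other cells of the skin also differed between the samples. Melanocyte markers, from the pigment cells of the hair bulb, moved with the keratins. Uncv null 2 was above uncv null 1 in 6 of 6 markers, against 55.6% of all tested genes. Of the markers 5 of 6 had the order of the 9 keratins, against 20.1% of all tested genes. Their medians were -0.51 and 0.46 in uncv null 1 and 2. Their summed level, as the log2 of the summed linear values, was 10.21 and 10.87 in uncv null 1 and 2, against 10.49 in wild type. The exception was Mitf, the master regulator of the lineage, with 7.56 and 7.99 in uncv null 1 and 2, against 7.21 in wild type. Pmel, a melanosome protein, had the order of the 9 keratins, with 8.21 and 8.87 in uncv null 1 and 2, against 8.72 in wild type. Both were singled out after their values were seen. BALB/c mice are albino through a change in Tyr, and their hair bulbs still hold melanocytes.

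Fibroblast markers ran the other way between the uncv null arrays. They were lower in uncv null 2 than in uncv null 1 for 7 of 7, where 55.6% of all tested genes were higher. Their summed level was 14.38 and 14.03 in uncv null 1 and 2, against 14.47 in wild type. Markers of the interfollicular epidermis had summed levels of 14.65 and 14.87 in uncv null 1 and 2, against 14.71 in wild type. Of these 9 markers 8 were higher in uncv null 2 than in uncv null 1, against 55.6% of all tested genes. The order of the 9 keratins was found in 5 of these markers, against 20.1% of all tested genes. Their medians were -0.05 and 0.18 in uncv null 1 and 2. The epidermal keratins of this list, singled out after their values were seen, had uncv null 2 above uncv null 1 by 0.13 in Krt10, 0.21 in Krt5, 0.30 in Krt1 and 0.45 in Krt14, the last within the range of the shaft keratins. Cell cycle genes, which the dividing hair matrix expresses, had medians of 0.05 and 0.24 in uncv null 1 and 2 over 15 genes, of which 0 passed. Their largest mean differences were 0.74 in Cenpe, 0.47 in Bub1b, 0.25 in Mki67 and 0.24 in Ube2c. Dermal papilla markers, from the cells that instruct the matrix, had medians of -0.07 and -0.11 in uncv null 1 and 2 over 5 tested genes.

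The remaining marker lists were measured as well. White adipocyte markers had medians of 0.51 and 1.21 in uncv null 1 and 2 over 4 genes, and sebaceous gland markers 0.27 and 1.17 in uncv null 1 and 2 over 3 genes. Both lists were higher in uncv null 2 than in uncv null 1, as the shaft keratins were. Macrophage markers had medians of 0.08 and 0.42 in uncv null 1 and 2 over 6 genes. Their summed level was 10.04 and 9.99 in uncv null 1 and 2, against 9.95 in wild type, so the sum was not higher in uncv null 2. Endothelial markers had medians of -0.26 and -0.31 in uncv null 1 and 2 over 6 genes. Skeletal muscle markers had -0.76 and -0.64 in uncv null 1 and 2 over 6, and Schwann cell markers -0.44 and -0.89 in uncv null 1 and 2 over 3. The part of cell composition in the keratin differences was not tested.

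Likeness to the shaft keratins was measured as the distance, in log2 units over the 2 differences from wild type, to the members' medians of -0.27 and 0.17. The 5 nearest genes outside the lists were Slc35a4, Lmo4, Card19, Yif1b and Tbc1d23, at distances of 0.0090, 0.0094, 0.014, 0.014 and 0.015. Slc35a4, the nearest, had 7.15 in uncv null 1 and 7.61 in uncv null 2, against 7.44 in wild type. Within 0.25 of the medians lay 1249 other genes, 14.8% of those tested. The members set the centre, so their own number within that distance, 7 of 10, is largely fixed by it.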

How the data were processed

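Total RNA of 3 dorsal skin samples was hybridised to 1 array each, in 1 colour. Grouping followed the sample titles. Each p-value rests on the spread between the 2 uncv null arrays, which limma moderates toward a variance shared over all genes. The moderated spread is assumed to hold for the lone wild type array. The deposited values are on the log2 scale and were made by the authors with RMA, per the submitters' processing notes; its software and version were not given in the sources used here. They ran from 1.96 to 13.1. Scanner files were not used here, so the number of arrays limits the precision. RMA equalises the arrays' intensity distributions, so a change common to all transcripts would be hidden. The labels' protocols and the series text name different extraction reagents.

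Of 45101 probe sets, 64 controls were kept apart, 34945 had 1 gene symbol, 932 several and 9160 none. Each gene was represented by its brightest probe set and tested if the 3-array mean reached 5, with limma 3.58.1 in R 4.3.3 (lmFit, eBayes without trend, Benjamini-Hochberg adjustment over 8456 genes, threshold 0.05). There was 1 residual degree of freedom per gene, with 7.57 prior degrees of freedom. The fit was tested on simulated data. All 10 members matched the reference gene table by identifier. Named genes were all members, the 4 genes of each list with the largest absolute mean difference, and the 5 nearest in pattern; other genes given with values were chosen after their values were seen, as were the epidermal keratins Krt1, Krt5, Krt10 and Krt14. Members and lists were chosen with earlier results of these data known. The promoter windows came from RefSeq, and the bases after the gene start were left out. Results were recomputed under other filters, normalizations, variance models and probe set rules, and without each uncv null array.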

Additional observations from a re-analysis of the deposited data

Results flagged for a closer look

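The 18S ribosomal RNA control probe sets, which are no part of the keratin comparison, gave a signal in uncv null 1 that exceeded wild type by 4.34 log2 units (3 probe sets averaged). Its relation to the keratin values was not tested.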

How the results depend on the processing

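With no filter, a mean of at least 7, centred arrays, a further quantile normalization or the mean of probe sets, the members' median stayed between -0.285 and -0.245 in uncv null 1 minus wild type, between 0.13 and 0.22 in uncv null 2 minus wild type, and between 0.41 and 0.51 in uncv null 2 minus uncv null 1. The count of genes and of members past the test was 0 in each of these, with an intensity trend, and in a fit over all 13559 probe sets past the filter, an alternative chosen after seeing the data, in which 391 had an unadjusted p under 0.05. The lowest adjusted p of a member over these settings was 0.997. With arrays centred on their medians, the mean difference of Krt31 changed sign, to 0.0037. With the further quantile normalization uncv null 2 was above wild type in 8 of 10 members and above uncv null 1 in 10 of 10.

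Leaving out 1 uncv null array leaves 1 array against 1 and no test. The mean difference then ranged from -0.24 to 0.20 in Krt31, 0.24 to 0.61 in Krt32, -0.18 to 0.30 in Krt33a, -0.41 to 0.025 in Krt33b, -0.26 to 0.085 in Krt34, -0.29 to 0.18 in Krt35, -0.71 to 0.011 in Krt81, -0.24 to 0.16 in Krt82, -0.65 to 0.081 in Krt83 and -0.45 to 0.22 in Krt86, the lower value being uncv null 1 each time. Wild type, with 1 array, was kept throughout. No paired analysis was possible because wild type has 1 sample. Signal over background was not used here, and folds of dim genes may be understated.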
